A study of Mus musculus with 12 samples.

Results

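Perineuronal nets are lattices of extracellular matrix that wrap the soma and proximal dendrites of certain neurons, in the cortex above all the fast-spiking interneurons that express parvalbumin. A backbone of hyaluronan, which is spun out at the cell surface by hyaluronan synthases, is decorated with chondroitin sulfate proteoglycans of the lectican family. Link proteins clamp the lecticans to hyaluronan at one end, tenascin-R ties them together at the other, and secreted metalloproteinases cut them. The same proteoglycans also fill the looser matrix between cells, where astrocytes and cells of the oligodendrocyte lineage are among their sources.

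The genes examined here were 10 genes of this system, picked out of the count table by gene symbol as components of brain matrix and perineuronal nets and their proteases. No measured value enters that rule, but earlier results of these data were known when the genes were chosen. They comprise the lecticans Acan, Bcan, Ncan and Vcan, the link protein genes Hapln1 and Hapln4, the tenascin-R gene Tnr, the hyaluronan synthase gene Has3 and the protease genes Adamts4 and Mmp9. All 10 were among the 33024 gene symbols of the count table, and all 10 were among the 16059 genes that passed the expression filter.

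Brain cortex RNA was sequenced from 12 C57BL/6 mice, 7 labelled Control (Vehicle) and 5 labelled EtOH. By the study's methods, mice entered the two-bottle choice drinking-in-the-dark paradigm at 30 days of age and had 35 sessions of 12 h, in which EtOH mice chose between water and 20% (v/v) ethanol and Control mice were offered water in both bottles. The sequenced animals then abstained for 14 days and went through behavioural tests before saline perfusion and harvest, so the values describe a state after withdrawal and testing and not during drinking. Intake was voluntary, and no dose per sequenced mouse is attached to the labels.

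Total counts lay between 31768076 and 42183029 per mouse, so that 3 counts, taken as the limit of detection, correspond to at most 0.0962 CPM (counts scaled to library size after TMM normalization). The markers of the labelled tissue were present, in that the cortical list, led by the vesicular glutamate transporter gene Slc17a7 with a mean of 1955 CPM in Control mice, summed to between 2516 and 3045 CPM in Control and between 2392 and 2950 CPM in EtOH mice. Of its 10 genes 2 were called, Fezf2 higher and Lamp5 lower (log2 fold changes of 0.60 and -0.51, edgeR adjusted p = 0.000100 and 0.00608), both with groups that did not overlap. Lists of neighbouring regions differed too. All 14 striatal markers were lower in EtOH mice, with sums of 1339 to 2993 CPM in Control and 389 to 500 CPM in EtOH mice, and 9 of 10 hippocampal markers were higher, with sums of 160 to 183 CPM against 299.7 to 381 CPM. None of these markers was at 0 in all mice, and the part of tissue content in the results below was not tested. In bulk tissue, fewer cells of a type and less RNA per cell cannot be told apart.

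None of the 10 genes passed both thresholds of the study, which are 0.05 for the adjusted p and 0.5 for the size of the log2 fold change (log2FC, EtOH minus Control). The test was edgeR's quasi-likelihood test on 5 against 7 mice, Benjamini-Hochberg adjusted over all genes tested, and SE is the standard error of the log2FC. Over all genes tested, 8.29% passed both thresholds, and 9.81% had groups that did not overlap. The groups overlapped for all 10 genes of the net, and in a set of only 10 genes a count of 0 lies close to both shares. Without a minimum fold change 23.7% of all genes passed, and still 0 of the 10. At an unadjusted p under 0.05, 3 of the 10 passed, namely Hapln1, Acan and Mmp9, where 36.5% of all genes did. DESeq2 and limma voom also called 0 of the 10. The median size of the log2FC was 0.16 for the 10 genes and 0.15 for all genes tested, and 5 estimates were positive and 5 negative.

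**Figure D1:**
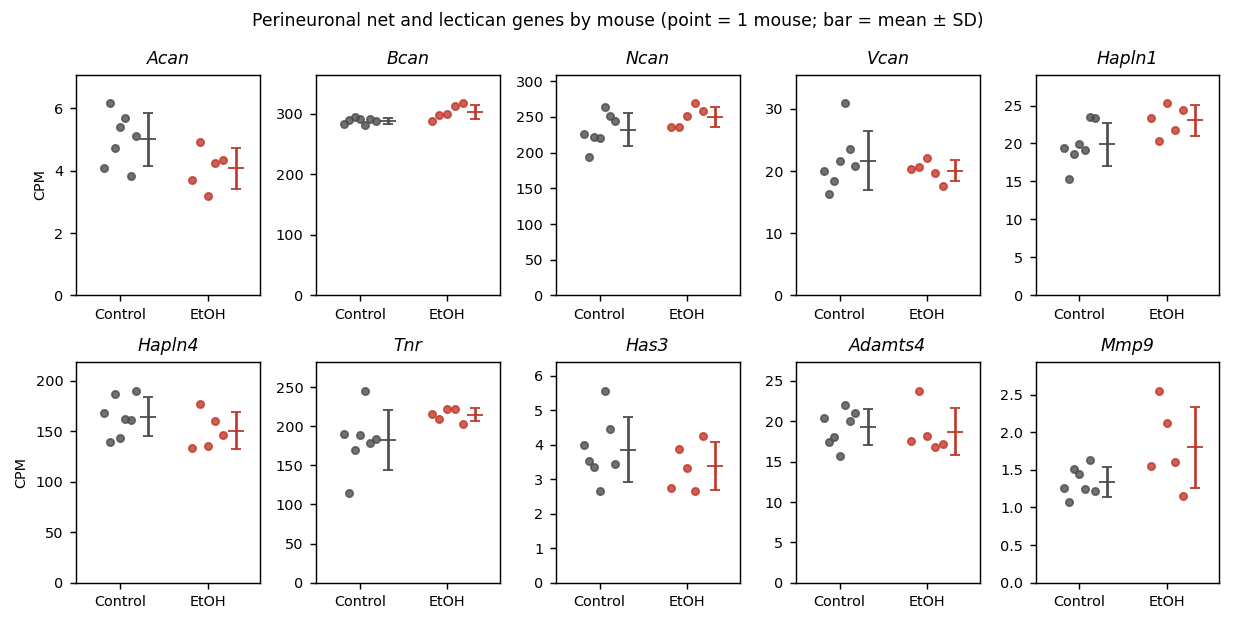
CPM of each of the 10 genes in every mouse, Control in grey (n = 7) and EtOH in red (n = 5), with the mean and SD beside the points and each axis starting at 0. The groups overlap in every panel; Bcan has the narrowest spread and Tnr shows 1 low and 1 high Control mouse.

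Levels between genes were compared as CPM per kilobase of exon, averaged over all 12 mice. Hapln4 stood highest at 39.6 CPM per kb, followed by Bcan at 34.3, Ncan at 23.9 and Tnr at 14.4 CPM per kb. Hapln1 (2.97 CPM per kb), Adamts4 (2.95), Vcan (1.27), Acan (0.597), Has3 (0.573) and Mmp9 (0.413) formed a lower tier. Between Tnr and Hapln1, the 4.86-fold step was the widest between neighbours in this order. Hapln4 was above Bcan in 9 of 12 mice, Hapln1 above Adamts4 in 7, Acan above Has3 in 7 and Has3 above Mmp9 in 9, and the ranges of those 4 pairs overlapped. All other neighbours were ordered the same way in 12 of 12 mice. Among the lecticans, Bcan made up 57.3 ± 2.67% (SD, n = 7) of the summed level per kb in Control and 56.9 ± 0.635% (SD, n = 5) in EtOH mice, and Ncan 39.4 ± 2.44% and 40.3 ± 0.751%. Vcan contributed 2.22 ± 0.403% and 1.96 ± 0.218%, and Acan 1.11 ± 0.208% and 0.851 ± 0.139%.

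Acan encodes aggrecan, the lectican most closely tied to perineuronal nets. It lies on chromosome 7 of GRCm39 from 78702964 to 78764847. The 7 Among Control mice, values ran from 3.83 to 6.16 CPM with a median of 5.10 CPM. The values in EtOH mice 1 to 5 were 3.71, 4.92, 3.19, 4.25 and 4.35 CPM. EtOH mice 1 and 3 fell below every Control mouse and all 5 were under the Control median, while the ranges overlapped. Acan had 5.00 ± 0.842 CPM (SD, n = 7) in Control and 4.08 ± 0.657 CPM (SD, n = 5) in EtOH mice, a log2FC of -0.30 (SE 0.14, 95% interval -0.59 to -0.0048, edgeR adjusted p = 0.130). The interval reaches past -0.5, so a decrease of that size is not outside what these libraries allow. Acan rested on 107 to 233 counts per mouse.

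Bcan encodes brevican, a lectican of the adult brain made largely by glia, and lies on chromosome 3 from 87894835 to 87910177. Control mice ranged from 281 to 294 CPM with a median of 289 CPM. EtOH mice 1 to 5 had 288, 298, 299.8, 313 and 317 CPM. Of these, 4 lay above every Control mouse and EtOH mouse 1 lay within their range. The difference was small, with 288 ± 4.77 CPM (SD, n = 7) against 303 ± 11.8 CPM (SD, n = 5) and a log2FC of 0.072 (SE 0.042, 95% interval -0.017 to 0.16, edgeR adjusted p = 0.229). Its coefficient of variation in Control mice was 1.65%, the lowest of the 10 genes.

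Ncan encodes neurocan, a lectican that is most abundant during development, and lies on chromosome 8 from 70538926 to 70573523. Among Control mice, values ran from 194 to 263 CPM with a median of 226 CPM. The values in EtOH mice 1 to 5 were 236, 236, 251, 269 and 258 CPM. All 5 exceeded the Control median but only EtOH mouse 4 exceeded every Control mouse. Its log2FC was 0.11 (SE 0.067, 95% interval -0.034 to 0.25, edgeR adjusted p = 0.260).

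Vcan encodes versican, a large lectican of oligodendrocyte precursors and of the matrix at nodes of Ranvier, on chromosome 13 from 89803431 to 89890814. Control mice ranged from 16.3 to 30.9 CPM with a median of 20.8 CPM. EtOH mice 1 to 5 had 20.4, 20.7, 22.1, 19.6 and 17.5 CPM, all within the Control range. The log2FC was -0.11 (SE 0.12, 95% interval -0.37 to 0.14, edgeR adjusted p = 0.528).

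The link protein genes leaned in opposite directions, and neither passed the test. Hapln1, whose product (cartilage link protein) stabilises nets on neurons that make it, lies on chromosome 13 from 89686581 to 89759950. Among Control mice, values ran from 15.3 to 23.4 CPM with a median of 19.4 CPM. The values in EtOH mice 1 to 5 were 23.4, 20.3, 25.3, 21.8 and 24.5 CPM. All 5 exceeded the Control median, and EtOH mice 3 and 5 exceeded every Control mouse. The log2FC of 0.21 had the smallest p of the 10 genes (SE 0.094, 95% interval 0.016 to 0.41, edgeR unadjusted p = 0.0355, adjusted p = 0.107).

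Hapln4 encodes the brain link protein found in nets and around inhibitory terminals, and lies on chromosome 8 from 70536106 to 70543533. Control mice ranged from 139.8 to 190.2 CPM with a median of 162 CPM. EtOH mice 1 to 5 had 134, 177, 136, 160.4 and 146 CPM. EtOH mice 1 and 3 were below every Control mouse, as they were for Acan, and EtOH mouse 2 was above the Control median. Its log2FC was -0.13 (SE 0.086, 95% interval -0.31 to 0.055, edgeR adjusted p = 0.306).

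Tnr, which encodes tenascin-R, lies on chromosome 1 from 159351339 to 159759299. Among Control mice, values ran from 115 to 245 CPM with a median of 184 CPM, and EtOH mice 1 to 5 had 216, 209.5, 222, 222 and 202 CPM. All 5 EtOH mice were above the Control median and none was above Control mouse 5, the highest. The spread also differed, with a coefficient of variation of 21.1% in Control (n = 7) and 3.93% in EtOH mice (n = 5); the difference in spread was not tested. The log2FC was 0.24 (SE 0.12, 95% interval -0.0084 to 0.48, edgeR adjusted p = 0.150). Without Control mouse 5 the adjusted p was 0.0212, with a log2FC of 0.32 that remained under the threshold of 0.5 in size.

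Has3, on chromosome 8 from 107596874 to 107611198, encodes a hyaluronan synthase that makes comparatively short chains. It ranged from 2.66 to 5.57 CPM in Control mice with a median of 3.52 CPM. The values in EtOH mice 1 to 5 were 2.76, 3.89, 3.34, 2.67 and 4.26 CPM, all inside the Control range. Its log2FC was -0.20 (SE 0.17, 95% interval -0.56 to 0.17, edgeR adjusted p = 0.441).

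Adamts4 encodes an aggrecanase that cleaves lecticans and is made in the brain chiefly by oligodendrocytes, on chromosome 1 from 171077986 to 171089841. Control mice ranged from 15.7 to 22.0 CPM with a median of 20.1 CPM. EtOH mice 1 to 5 had 17.5, 23.8, 18.2, 16.8 and 17.2 CPM. EtOH mouse 2 was the highest of all 12 mice, and the other 4 EtOH mice were under the Control median. The log2FC was -0.042 (SE 0.098, 95% interval -0.25 to 0.16, edgeR adjusted p = 0.791).

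Mmp9 encodes gelatinase B, a secreted metalloproteinase released by active neurons and by neutrophils, on chromosome 2 from 164780439 to 164797771. It was the gene with the lowest level and the largest estimate. Among Control mice, values ran from 1.07 to 1.63 CPM with a median of 1.25 CPM, and EtOH mice 1 to 5 had 1.55, 2.55, 2.12, 1.61 and 1.16 CPM. EtOH mice 2 and 3 exceeded every Control mouse, whereas EtOH mouse 5 fell under the Control median. Its log2FC was 0.42 (SE 0.20, 95% interval 0.0059 to 0.84, edgeR adjusted p = 0.131), on 35 to 82 counts per mouse. Neutrophil markers, of which 4 of 10 passed the filter and none was called, summed to 0.470 to 5.10 CPM in Control and 0.334 to 5.63 CPM in EtOH mice. The 4 estimates were negative (median log2FC -1.20), with SEs from 0.57 to 0.80 (edgeR adjusted p from 0.173 to 0.759). Their group means were only 0.161 to 0.736 CPM, and the part of neutrophils in the Mmp9 values was not tested.

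**Figure D2:**
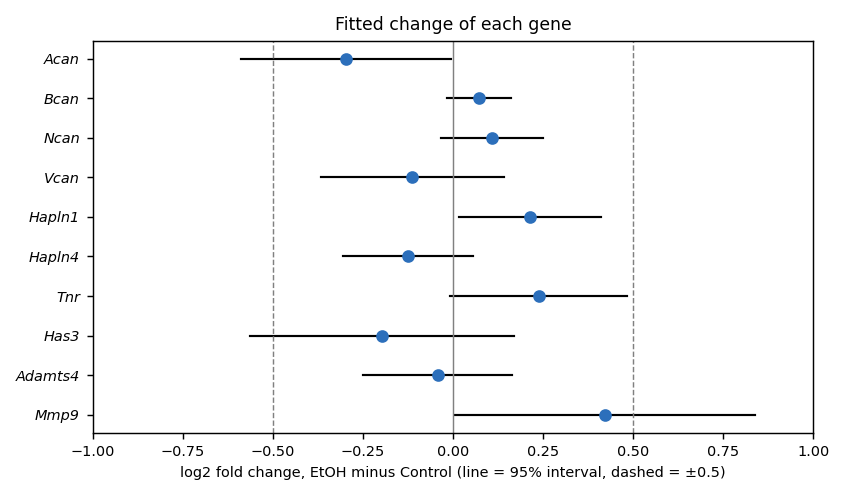
Log2FC of each gene (EtOH minus Control, edgeR, 5 against 7 mice) with its 95% interval, and dashed lines at the threshold of 0.5 in size. The 10 estimates lie between -0.30 for Acan and 0.42 for Mmp9, and the intervals of 7 genes lie wholly between the dashed lines.

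For 7 of the 10 genes, the 95% interval stayed within 0.5 in size. The other 3, Acan, Has3 and Mmp9, were the least abundant genes, and their intervals reached -0.59, -0.56 and 0.84. For Mmp9 the coefficient of variation among Control mice was 14.5%, about as large as the 15.1% that counting error alone gives at its mean Control count. Among EtOH mice it was 30.2% (n = 5). For Acan (16.8% against 7.74%) and Has3 (24.4% against 8.78%) the spread between Control mice exceeded counting error, and for Tnr (21.1% against 1.28%) it did so by the widest margin. These intervals are for 1 gene at a time, and counting error here refers to reads and not to independent molecules.

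Single mice were repeatedly at the edge of their group. Control mouse 2 was the lowest Control mouse for 6 of the 10 genes, namely Ncan, Vcan, Hapln1, Hapln4, Tnr and Mmp9, and the highest for Acan. Control mouse 5 was the highest Control mouse for Ncan, Vcan, Tnr, Has3 and Adamts4, and the lowest for Bcan. Control mouse 5 also had the largest library of its group, and its part in these values was not tested. Among EtOH mice, EtOH mouse 2 was highest for 4 genes and EtOH mouse 3 for 3.

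In the mouse genome each lectican gene has a link protein gene for a neighbour, and neighbours need not be partners in the matrix. Acan and Hapln3 end 2 bp apart on chromosome 7, and Bcan lies 16.6 kb from Hapln2 on chromosome 3. Vcan lies 43.5 kb from Hapln1 on chromosome 13, and Ncan and Hapln4 run towards each other on chromosome 8 and overlap by 4608 bp. The log2FC values were -0.30 for Acan and 0.25 for Hapln3 (edgeR adjusted p = 0.467). For Bcan and Hapln2 they were 0.072 and -0.65. For Ncan and Hapln4 they were 0.11 and -0.13, and for Vcan and Hapln1 -0.11 and 0.21. The estimates of the 2 genes thus had opposite signs in 4 of 4 pairs, which was noticed after the values had been seen, and Hapln2 alone of these 8 genes passed both thresholds. Hapln2, which encodes a link protein made by oligodendrocytes for nodes of Ranvier, fell from 29.7 ± 2.52 CPM (SD, n = 7) to 18.9 ± 4.42 CPM (SD, n = 5), a log2FC of -0.65 (SE 0.11, edgeR adjusted p = 0.000522).

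**Figure D3:**
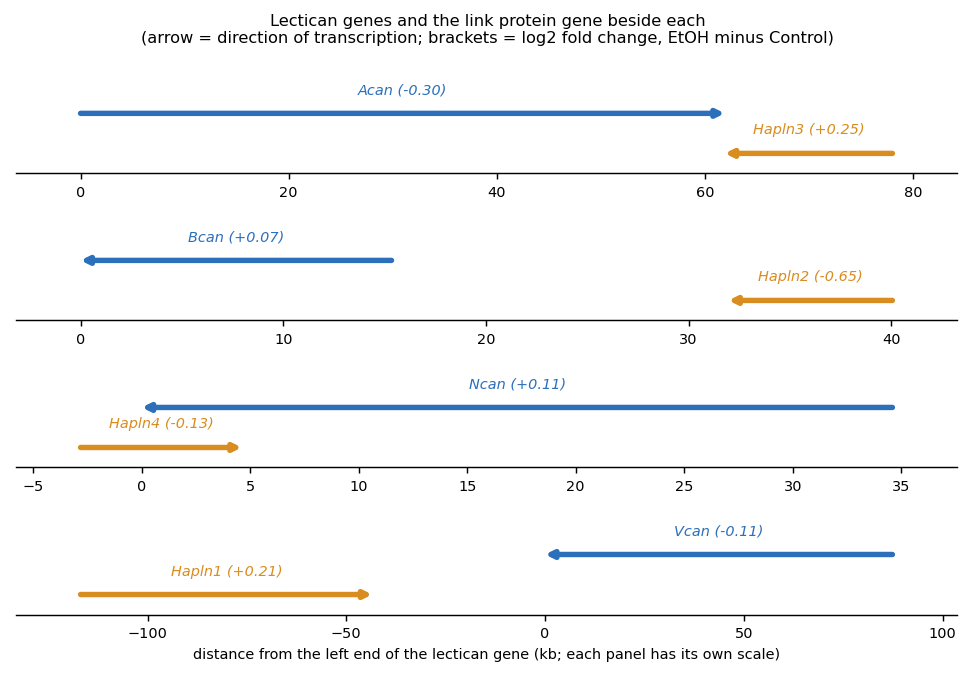
The 4 lectican genes (blue) and the link protein gene beside each (orange), drawn to scale within a panel in kb from the left end of the lectican gene, with arrows for the direction of transcription and the log2FC (EtOH minus Control) in brackets. Ncan and Hapln4 are the only pair whose gene bodies overlap.

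The overlap of Ncan and Hapln4 bears on how their counts can be read. Of the exon bases of Hapln4, 1255 bp or 31.3% are also exon of Ncan on the other strand, which is 12.6% of the exon bases of Ncan. Without strand, reads from this stretch cannot be told apart, and whether the counting used strand is not given in the sources used here. For Acan, Tnr, Has3 and Adamts4, other annotated genes on the opposite strand share between 2.21% and 5.51% of their exon bases. Bcan, Vcan, Hapln1 and Mmp9 share none.

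Ratios of 2 genes within a library do not depend on its size, and 9 ratios were compared between the groups by permuting the mice exactly, two-sided (792 ways to divide 12 mice into 5 and 7, smallest possible p 0.00126) and Benjamini-Hochberg adjustment over the 9. Acan relative to Pvalb, the gene that marks the neurons carrying most cortical nets, differed by 0.034 on the log2 scale (exact permutation adjusted p = 0.856). Hapln4 relative to Pvalb differed by 0.20 (exact permutation adjusted p = 0.252). Pvalb itself had 39.6 CPM in Control and 31.9 CPM in EtOH mice on average, a log2FC of -0.31 (edgeR adjusted p = 0.106). Of the 12 genes listed for these interneurons 1 was called, Gad2, which was lower. The estimates of 9 of the 12 were positive (median log2FC 0.037), among them Btbd11 at 0.43 and Erbb4 at 0.40 (edgeR adjusted p = 0.000173 and 0.00155). The 3 negative estimates were those of Pvalb, Gad2 and Gad1, the last at -0.31 (edgeR adjusted p = 0.00397) with every EtOH mouse below every Control mouse. Gad1 and Gad2 are expressed by inhibitory neurons in general, those of the striatum included, so they do not single out these interneurons. Striatal markers were lower in the same mice, and their part in the Gad1 and Gad2 values was not tested.

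Vcan relative to Pdgfra, a receptor gene of oligodendrocyte precursors, lay 0.32 lower (log2) in EtOH mice. The log2 ratio was -1.05 ± 0.20 (SD, n = 7) in Control and -1.37 ± 0.13 (SD, n = 5) in EtOH mice, with overlapping ranges (exact permutation p = 0.0101, adjusted p = 0.0455). Pdgfra had a log2FC of 0.23 (edgeR adjusted p = 0.0253), under the threshold of 0.5 in size, while Vcan had -0.11. Of the 9 markers of oligodendrocyte precursors 6 had negative estimates (median log2FC -0.24), such as Olig2 at -0.32 (edgeR adjusted p = 0.0121), while Pdgfra, Gpr17 and Matn4 had positive ones, and ratios of Vcan to the other 8 were not tested. Adamts4 relative to the myelin gene Mog was higher by 0.41, with log2 ratios of -1.36 ± 0.17 (SD, n = 7) and -0.95 ± 0.22 (SD, n = 5) that overlapped as well (exact permutation p = 0.00884, adjusted p = 0.0455). Mog had a log2FC of -0.42 (edgeR adjusted p = 0.0209), within a list of 10 mature oligodendrocyte markers that ran from -0.52 for Mobp to -0.032 for Opalin, and ratios of Adamts4 to the other 9 were not tested. Both adjusted values lie close to 0.05, and with 1 mouse left out the first ratio passed in 1 of 12 tests and the second in 2 of 12.

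Hapln1 relative to Hapln4 was higher by 0.35 (exact permutation p = 0.0366, adjusted p = 0.0824) and Acan relative to Bcan lower by 0.36 (exact permutation p = 0.0328, adjusted p = 0.0824), and neither passed after adjustment. Ncan relative to Bcan (0.041), Tnr relative to Pdgfra (0.041) and Bcan relative to the astrocyte gene Aldh1l1 (0.12) had exact permutation adjusted p-values of 0.763, 0.856 and 0.250. Aldh1l1, with a log2FC of -0.042, was among the 3 of 10 astrocyte markers with a negative estimate (median of the list 0.17), and that median lies above the 0.072 of Bcan.

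**Figure D4:**
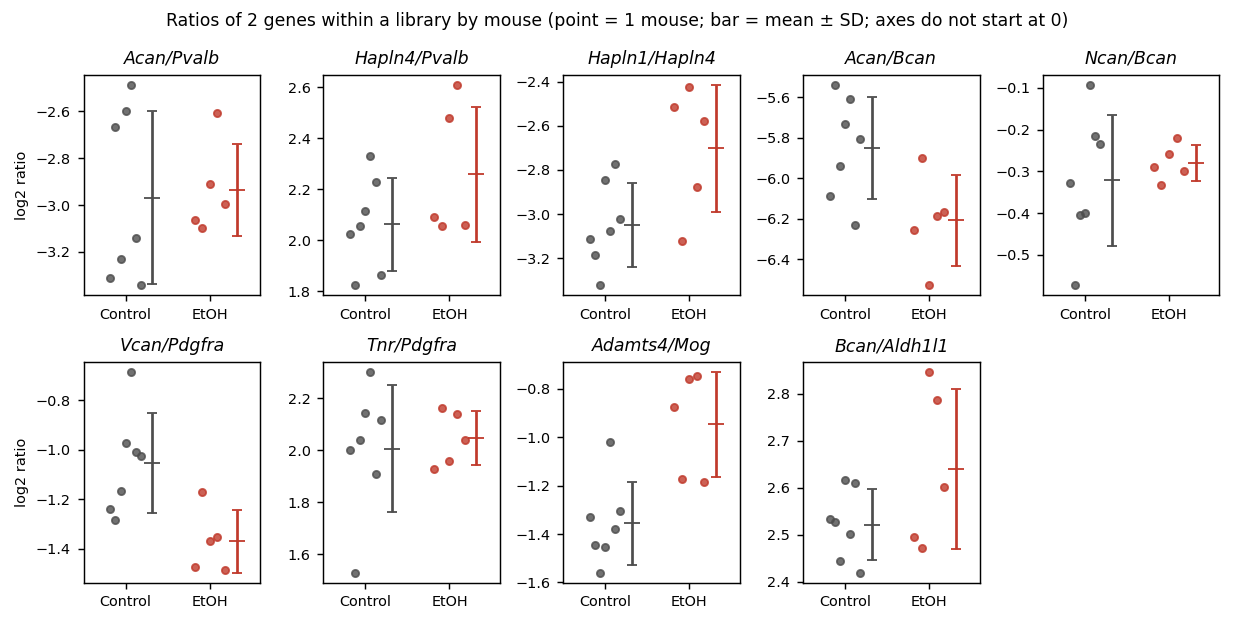
Log2 ratio of 2 genes within each library for the 9 pairs, Control in grey (n = 7) and EtOH in red (n = 5), with the mean and SD; the axes do not start at 0. Vcan/Pdgfra lies lower and Adamts4/Mog higher in most EtOH mice, and the groups overlap in every panel.

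Beyond the 10 genes, 5 lists of other matrix genes were read out of the same fit. Of 92 listed genes 88 were tested, 13 were called higher and 4 lower, where 4.20% of all genes were called higher and 4.09% lower, and the median log2FC was 0.11 against 7.21e-05 for all genes. The striatal and hippocampal markers given above moved with the groups in the same mice, and their part in these calls was not tested.

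The list of hyaluronan and link genes had 4 genes called higher and 1 lower of 14 tested (median log2FC 0.28). Cd44, the main cell surface receptor for hyaluronan, rose from 1.90 ± 0.423 CPM (SD, n = 7) to 6.45 ± 1.59 CPM (SD, n = 5), a log2FC of 1.76 (SE 0.17, edgeR adjusted p = 1.30e-06). Cemip, whose product takes part in hyaluronan breakdown, rose from 19.2 ± 2.57 to 32.5 ± 2.46 CPM (log2FC 0.75, edgeR adjusted p = 6.62e-06). The tenascin genes Tnxb and Tnc rose as well, by 1.64 and 0.99 on the log2 scale (edgeR adjusted p = 4.68e-07 and 0.000614). Every EtOH mouse was above every Control mouse for Cd44, Cemip and Tnxb, and 4 of 5 were for Tnc. The other hyaluronan synthase gene tested, Has1, had a log2FC of 0.11 (edgeR adjusted p = 0.733).

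Hapln2 was the gene of this list called lower, as given above, and it is an oligodendrocyte gene. Of 10 markers of mature oligodendrocytes, 1 was called, Mobp, which was lower with a log2FC of -0.52 (edgeR adjusted p = 0.00656), and all 10 estimates were negative, with sums of 2321 to 2838 CPM in Control and 1533 to 2727 CPM in EtOH mice.

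Among 17 core proteins of other brain proteoglycans (median log2FC 0.19), Dcn (decorin, a small proteoglycan of fibroblasts and meninges) and Gpc4 (a glypican released by astrocytes) were called higher and Spock3 (a testican) lower. Dcn rose by 1.87 on the log2 scale (SE 0.26, edgeR adjusted p = 6.38e-05). It varied widely among EtOH mice, from 10.4 to 56.3 CPM against 7.20 to 10.5 CPM in Control mice. Gpc4 rose by 0.80 (edgeR adjusted p = 0.000126) and Spock3 fell by 0.73 (edgeR adjusted p = 0.000139), both with groups that did not overlap. The list of blood and vessel markers had 0 of 10 genes called, with sums of 83.9 to 207 CPM in Control and 70.2 to 150.01 CPM in EtOH mice. These sums include hemoglobin genes that varied widely between mice, such as Hbb-bs with 12.8 ± 18.8 CPM (SD, n = 7) in Control mice. The fibroblast collagen genes Col1a1 and Col1a2 of this list had log2FC values of 0.24 and -0.12 (edgeR adjusted p = 0.342 and 0.675). The part of fibroblast content in the Dcn values was not tested.

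The chondroitin sulfate enzymes had the fewest calls of the 5 lists, with 1 of 21 tested genes called and a median log2FC of -0.070. The exception, Ust, which sulfates uronic acid residues of the chain, rose from 27.96 ± 4.05 to 41.97 ± 4.63 CPM (log2FC 0.59, SE 0.096, edgeR adjusted p = 0.000300). Of the proteases and inhibitors, 3 of 22 tested genes were called higher and 1 lower (median log2FC 0.18). Adamts9, Adamts20 and Adamts1, relatives of Adamts4 in the same protease family, rose by 1.44, 0.57 and 0.66 on the log2 scale (edgeR adjusted p = 0.000201, 0.00193 and 0.0101), whereas the estimate for Adamts4 was -0.042. Adamts20 lost its call without EtOH mouse 2, where its log2FC was 0.48.

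Of 14 receptors and proteins bound to nets, 3 were called higher and 1 lower (median log2FC 0.15). Nrp1, the receptor subunit for semaphorin 3A, rose from 16.5 ± 2.17 to 33.4 ± 4.77 CPM (log2FC 1.02, SE 0.099, edgeR adjusted p = 1.09e-06). Its signalling partner Plxna1 rose by 0.60 (edgeR adjusted p = 0.000352), and both were higher in every EtOH mouse than in every Control mouse. The ligand gene Sema3a, whose product is held in nets, had a log2FC of -0.10 (edgeR adjusted p = 0.308). Otx2 encodes a homeoprotein that is taken up through nets as protein, so its RNA does not report what the nets hold. Its RNA rose by 1.92 (SE 0.53, edgeR adjusted p = 0.0150), with 0.128 to 0.670 CPM in Control and 0.122 to 4.41 CPM in EtOH mice. Of the EtOH mice 4 lay above every Control mouse, and EtOH mouse 5 lay below every Control mouse. Otx2 lost its call without EtOH mouse 3, under limma voom, with at least 10 counts in every mouse and with a replicate block. Nptx2, a secreted pentraxin of excitatory synapses on parvalbumin neurons, fell from 79.8 ± 22.7 to 44.2 ± 10.5 CPM (log2FC -0.85, SE 0.19, edgeR adjusted p = 0.00322).

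**Figure D5:**
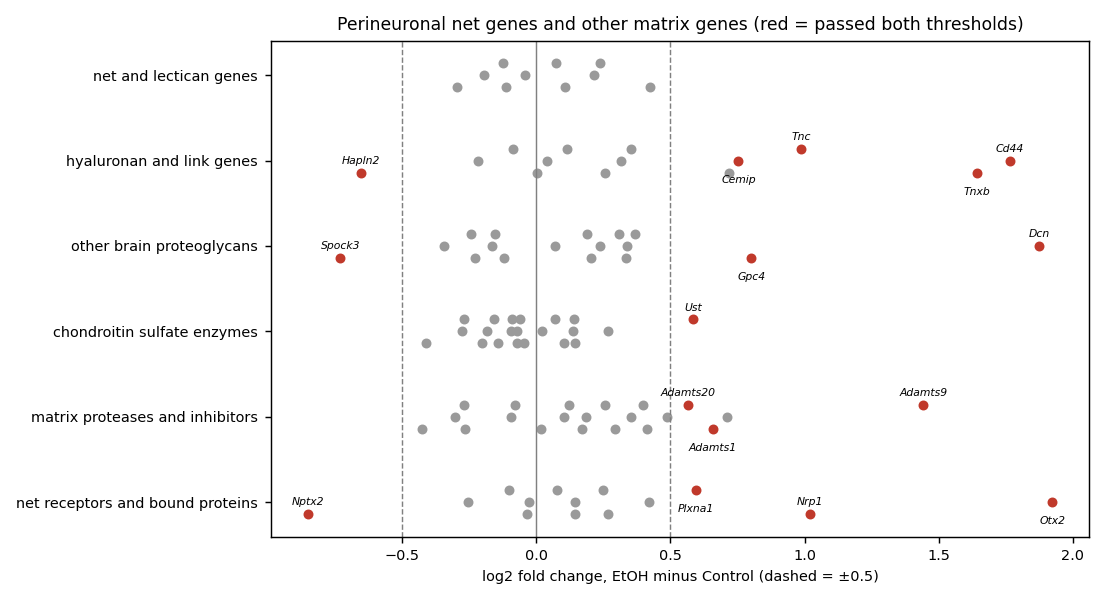
Log2FC (EtOH minus Control) of tested genes of the net and of the 5 other matrix lists, 1 point per gene with 1 gene left out, with genes that passed both thresholds in red and named. All 10 net and lectican genes lie between the dashed lines at 0.5 in size, and each of the other lists, all of them longer, holds called genes beyond them.

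Remaining marker lists for cells that make these matrix genes showed few calls. Of 10 astrocyte markers 1 was called, Gfap, which rose by 0.77 on the log2 scale (edgeR adjusted p = 3.15e-05), while the list summed to 3687 to 4200 CPM in Control and 3984 to 4526 CPM in EtOH mice. None of 9 markers of oligodendrocyte precursors was called, with 6 estimates negative and 3 positive (sums of 338 to 383 and 312 to 346 CPM). None of 10 microglia markers was called, although all 10 estimates were negative and the sums did not overlap (344 to 380 CPM in Control and 299.8 to 328 CPM in EtOH mice).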

How the data were processed

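The authors deposited estimated counts by gene symbol for the 12 mice, which are not normalized (expected counts). By the paper's methods, reads were checked with FastQC (0.11.9), mapped to GRCm39 by STAR using a Gencode annotation and counted with featureCounts, and groups were compared with DESeq2. How the deposited expected counts came from these steps was not established here. Strand and multi-mapping settings are not given in the sources used here. Counts were not whole for 61 symbols, and all counts were rounded.

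Groups follow the sample titles, and each mouse is 1 sample. Genes were kept with filterByExpr (16059 of 33024), TMM scaled, and tested by quasi-likelihood in edgeR 4.0.16 (R 4.3.3) with p-values adjusted after Benjamini and Hochberg. DESeq2 1.42.0 and limma 3.58.1 gave alternatives. A standard error is the size of the log2 fold change divided by the square root of F, and its 95% interval uses the degrees of freedom of the test. Ratios used log2 CPM with a prior count of 2. Positions and exon lengths (union of exons) come from a later Gencode release on the same build. The 31 pairs of libraries within a group all differed by more than sampling noise.

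The 10 genes and all lists were chosen with earlier results of these data known. All 10 genes are named, as are called genes of the matrix lists, up to 4 per list and direction in order of p. The first gene is named for the lists of parvalbumin interneurons, astrocytes, both oligodendrocyte stages, blood and vessels, and cortex. No gene of the striatal, hippocampal, microglia or neutrophil lists is named. Hapln3, Has1, Sema3a, Gad1, Gad2, Opalin, Btbd11, Erbb4, Olig2, Gpr17, Matn4, Fezf2, Lamp5, Mobp, Gfap, Col1a1 and Col1a2 fall outside that rule, chosen once values were known. The values of 1 called gene of the matrix lists are not reported here, while the counts include it. Fits were tested on simulated data. The alternatives were DESeq2, limma voom, other scaling factors, expression filters and fold minimums, a replicate block and each mouse left out.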

Additional observations from a re-analysis of the deposited data

Results flagged for a closer look

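In 40 checks of a gene, a ratio or a total count within 1 group, 3 single values lay unusually far out, where chance gives about 2. EtOH mouse 2 had the highest Adamts4 level among EtOH mice (log2 CPM 4.58, next 4.19). The total of Control mouse 5 was 40690223, above a next total of 32356913 in that group. EtOH mouse 1 reached 42183029, above a next total of 33313165. With both of these deeper libraries left out, an alternative added after the data were seen, 0 of the 10 genes were called. Tnr then had a log2FC of 0.33 (edgeR adjusted p = 0.0363), and Adamts4 one of 0.021 (edgeR adjusted p = 0.909).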

How the results depend on the processing

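In all 22 alternatives, 0 of the 10 genes were called. The log2FC values of 9 of them kept their direction in 20 of 20 refits, and Adamts4 did so in 19 of 20, the exception being 0.021 without the deepest library of each group. With 1 mouse left out, estimates ranged from -0.38 to -0.22 for Acan, from 0.16 to 0.26 for Hapln1, from 0.15 to 0.32 for Tnr, from 0.26 to 0.54 for Mmp9, from 0.054 to 0.094 for Bcan, from 0.069 to 0.13 for Ncan, from -0.20 to -0.082 for Hapln4, from -0.17 to -0.012 for Vcan, from -0.29 to -0.089 for Has3 and from -0.15 to -0.0076 for Adamts4. Vcan and Has3 came closest to 0 without Control mouse 5, and Adamts4 was farthest from 0 without EtOH mouse 2; none of these was called in any fit. Genes called over the whole table numbered 1331, between 1162 and 1501 with 1 mouse left out, 3810 with no fold change minimum and 524 with a minimum of 1. Called genes of the other matrix lists numbered 17, between 15 and 18 with 1 mouse left out, and 36 and 6 under those same minimums; called marker genes numbered 28, between 26 and 38 with 1 mouse left out, and 55 with no minimum. The numbers follow from the minimum itself.

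Ratios were sensitive to single mice, in part because fewer mice allow fewer divisions. With 1 mouse left out, Vcan/Pdgfra ranged from -0.36 to -0.25, Adamts4/Mog from 0.36 to 0.47, Hapln1/Hapln4 from 0.28 to 0.45 and Acan/Bcan from -0.43 to -0.28. In these tests Vcan/Pdgfra passed only without EtOH mouse 2, and Adamts4/Mog only without Control mouse 5 or EtOH mouse 2. Hapln1/Hapln4 (adjusted p = 0.0364, exact permutation) and Acan/Bcan (adjusted p = 0.0409, exact permutation) passed without EtOH mouse 2. Ratios near 0 changed sign: Acan/Pvalb to -0.023, -0.0090 and -0.028 without Control mouse 1, 3 or 7 and to -0.047 without EtOH mouse 4 (highest 0.11), and Ncan/Bcan to -0.00073 and Tnr/Pdgfra to -0.039 without Control mouse 2 (highest 0.080 and 0.090). Their causes were not tested.

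Replicate numbers name different mice, and same-numbered mice did not deviate together (correlations from -0.11 to 0.018, none best with its own number). With the replicate block, 0 of the 10 genes were called, 1324 genes were called in all, and Hapln1 reached a log2FC of 0.32 (edgeR adjusted p = 0.0113). Otx2 lost its call under limma voom, with at least 10 counts in every mouse and with the block. Counting error alone gives Mmp9, at the mean of the 35 to 51 counts per Control mouse, a coefficient of variation of 15.1%, about that seen among Control mice. EtOH mice, with 38 to 82 counts, had 30.2%.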
